A study of Mus musculus with 8 samples.

Results

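The genes described here are the matrix metalloproteinases (MMPs), the ADAM and ADAMTS proteases, the ADAMTS-like proteins (ADAMTSL) and the tissue inhibitors of metalloproteinases (TIMPs). They were chosen by name among the protein-coding rows of the deposited expression table, which gave 86 genes of 46635 loci, of which 22186 were protein-coding. The 86 were 23 MMP, 4 TIMP, 35 ADAM (including Adamdec1), 19 ADAMTS and 5 ADAMTSL genes. RNA sequencing had been done on wild-type mouse small intestine from which EDTA had stripped the epithelium, leaving what the labels call mesenchyme. The 2 groups were postnatal day 14 (P14, 4 libraries) and a late embryonic stage (E17.5, 4 libraries, whose age label reads E17). All mice were wild type, no strain or treatment beyond the epithelial stripping was given, and nothing in the labels said whether each library came from a separate animal or pool, and the p-values given here therefore reflect the spread of these libraries alone, which may be technical.

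MMPs are zinc-dependent proteases, secreted or held at the cell surface, that are made as inactive precursors and cut collagens and other proteins of the extracellular matrix. ADAMs are membrane-bound relatives that release the outer parts of receptors and growth factors, ADAMTS enzymes are secreted and cut proteoglycans and procollagens, and ADAMTSL proteins share the non-catalytic domains of ADAMTS enzymes, lack the protease and associate with microfibrils. TIMPs bind the active sites of these enzymes. In a growing organ the mesenchyme is the main source of both matrix and matrix-cutting enzymes.

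Levels were given as FPKM, fragments scaled to gene length and library size, which corrects for gene length. The libraries held 17702122 to 18474346 assigned reads at P14 and 16660998 to 19496632 at E17.5. The test covered the 14044 genes that reached 1 FPKM in 4 or more libraries. P14 replicate 1 stood apart: its correlation across genes, on the log scale, with the other P14 libraries was 0.780 to 0.873, against 0.956 to 0.974 among the other 3. The summed FPKM of 15 pan-epithelial markers was 6236 in P14 replicate 1 and 154, 850 and 303 in P14 replicates 2 to 4, against 39.1 to 60.9 at E17.5. The summed fibroblast markers were 1075 in P14 replicate 1 and 2894 to 2966 in the other P14 libraries, against 2884 to 3332 at E17.5, so the labelled mesenchyme was present in every library. Macrophage markers summed to 225 to 448 FPKM at P14 and 481 to 518 FPKM at E17.5, and 8 of 13 were lower in every P14 library than in every E17.5 library. The part of these marker differences in the results that follow was not tested, and calls are also counted without that library. In bulk tissue, fewer cells of a type and less RNA per cell cannot be told apart.

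Of the 86 genes, 48 passed the filter: 12 MMP, 3 TIMP, 12 ADAM, 16 ADAMTS and all 5 ADAMTSL genes. At an adjusted p of 0.05, 3 of the 48 were higher at P14 (Adam33, Adam23 and Adamtsl3), or 6.25%, beside 9.72% of all tested genes. Another 18 were lower at P14, or 37.5%, beside 15% of all tested genes. The median log2 fold change, P14 minus E17.5 on log2(FPKM + 1), was -0.26 over the 48 and 0.00 over all tested genes. In 21 of the 48, every P14 library lay below every E17.5 library (20.4% of all tested genes did so), and in 5 every P14 library lay above (15.6% of all tested genes). Without P14 replicate 1 these counts were 22 below (29.7% of all tested genes) and 16 above (24.8%). Leaving out P14 replicate 1 kept all 21 calls and raised the counts to 15 higher, beside 22.6% of all tested genes, and 21 lower, beside 26.9%. The median was then -0.15 over the 48 and -0.03 over all tested genes. Rescaling each library to TPM, so that each sums to the same total, which moved the median of all tested genes to -0.18, left 2 of the 48 higher and 17 lower. Over all tested genes that rescaling gave 899 higher and 2678 lower calls, against 1365 and 2108 with the deposited scaling.

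**Figure D1:**
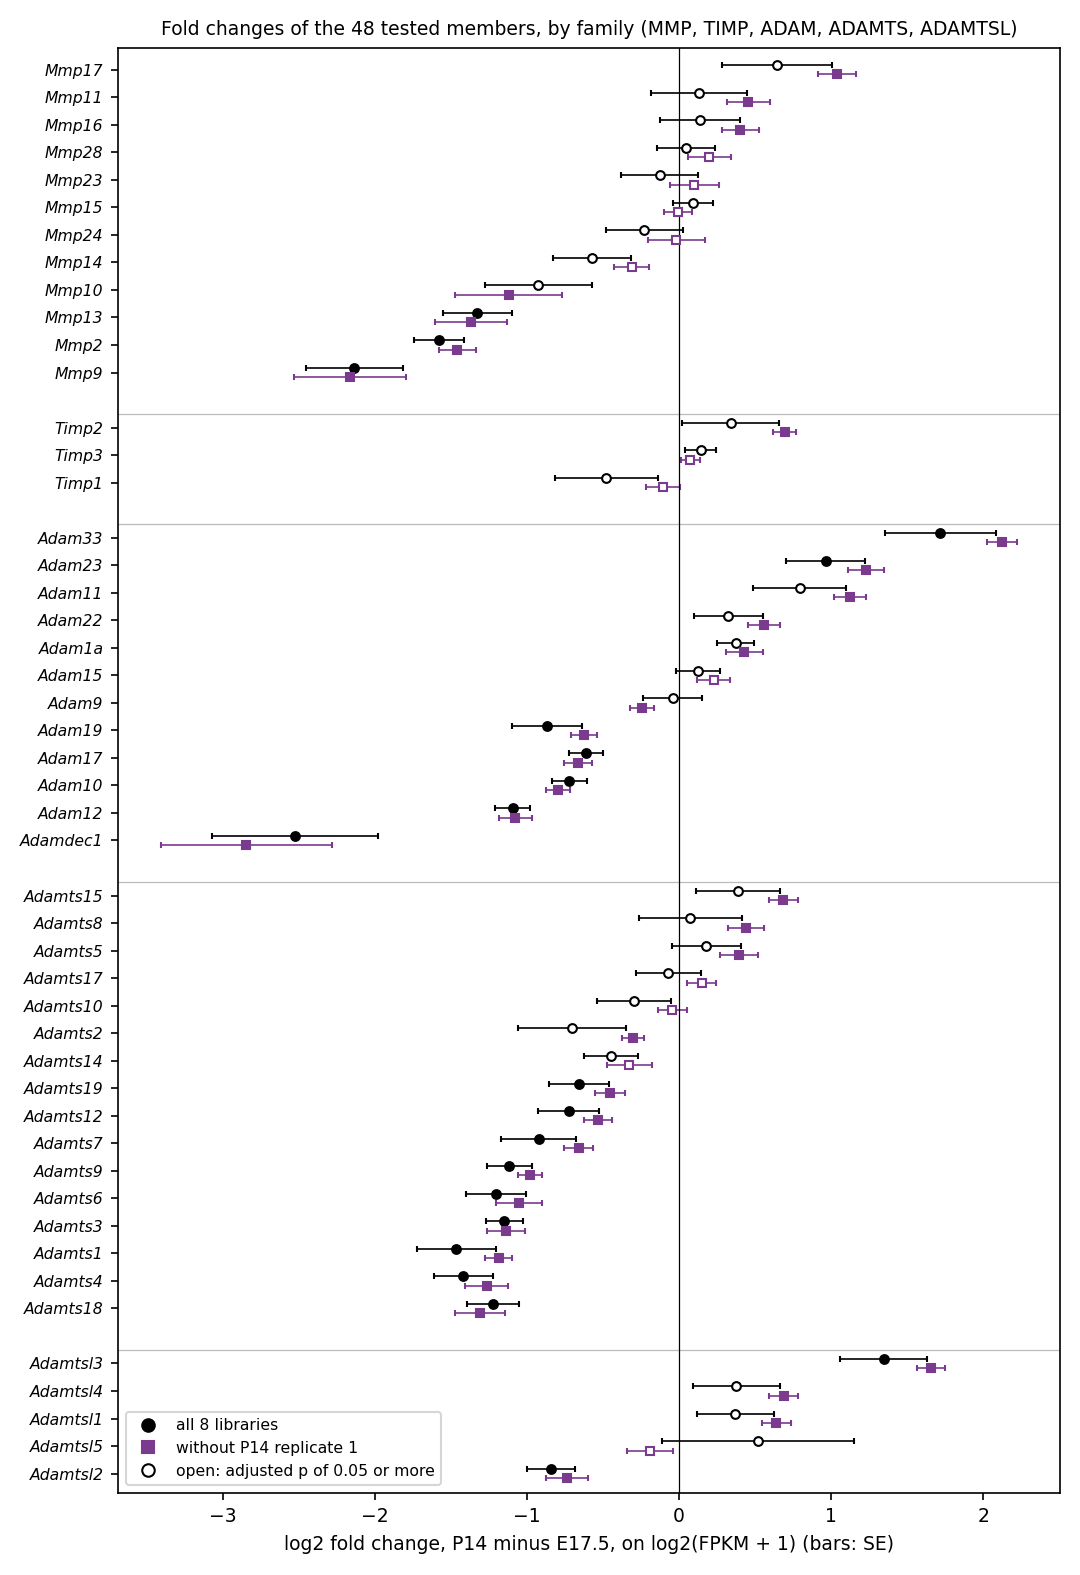
Log2 fold changes of the 48 tested genes (P14 minus E17.5 on log2(FPKM + 1), horizontal axis), grouped by family, with bars for the standard error. Black circles use all 8 libraries and purple squares leave out P14 replicate 1. Filled symbols have an adjusted p under 0.05. The 3 filled black circles right of 0 are Adam33, Adam23 and Adamtsl3, and the 18 to the left include Adamdec1 at -2.52 and Mmp9 at -2.14.

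Among the secreted MMPs, both gelatinases and the collagenase Mmp13 were lower at P14. Mmp2, which cuts denatured collagen and basement membrane collagen (chr8:93553920-93580049 in the GRCm39 coordinates of the file), had 40.5, 53.6, 67.1 and 51.2 FPKM in P14 replicates 1 to 4, against 169.8, 168, 162 and 135 FPKM in the E17.5 replicates. Every P14 library lay below every E17.5 library, with means of 53.1 ± 10.9 FPKM at P14 and 159 ± 16.3 FPKM at E17.5 (SD, n = 4 each). Its log2 fold change, given like the others ± its standard error, was -1.58 ± 0.16 (limma adjusted p = 0.000964), the mean being 2.99 times higher at E17.5. P14 replicates 2 to 4 had 51.2 to 67.1 FPKM of Mmp2, and their summed fibroblast markers, 2894 to 2966, overlapped those at E17.5. Single fibroblast markers differed: of 11, 3 were lower in every P14 library than in every E17.5 library (Pdgfra, Col6a1 and Col6a2). Dpt alone was higher in every P14 library. The part of fibroblast markers in the Mmp2 level was not tested. Mmp9, the other gelatinase (chr2:164782246-164797770, GRCm39), had 8.11, 8.10, 13 and 3.64 FPKM at P14, against 37.3, 43.3, 27.3 and 40.8 FPKM at E17.5. The ages did not overlap, and P14 replicate 4 was the lowest library. Mmp9 fell by 2.14 ± 0.32 on the log2 scale (limma adjusted p = 0.00379) and stood 21st at P14 and 7th at E17.5 among the 86 genes by mean level. Neutrophils store MMP9, and summed neutrophil markers were 3.69 to 10.0 FPKM at P14 and 7.47 to 12.0 FPKM at E17.5, with Ly6g, Elane and Mpo at or near 0 in every library. Of the 11 neutrophil markers, 3 were lower in every P14 library than in every E17.5 library (S100a9, Csf3r and Cxcr2). Camp alone was higher in every P14 library, at 2.09 to 3.57 FPKM, against 0.792 to 1.73 FPKM at E17.5. The rest overlapped between the ages. S100a9 was at 0.105 to 1.63 FPKM at P14 and 1.98 to 4.02 FPKM at E17.5, Csf3r at 0.253 to 0.682 FPKM at P14 and 1.12 to 1.33 FPKM at E17.5, and Cxcr2 at 0 to 0.114 FPKM at P14 and 0.148 to 0.389 FPKM at E17.5. The part of these markers in the Mmp9 level was not tested. Mmp13, which cuts fibrillar collagen, had 1.41, 1.21, 1.93 and 0.508 FPKM at P14, against 3.88, 3.98, 4.24 and 6.34 FPKM at E17.5. The ages did not overlap, E17.5 replicate 4 was the highest library, and the log2 fold change was -1.33 ± 0.23 (limma adjusted p = 0.00598).

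The MMPs anchored in the membrane were not called between the ages with all 8 libraries (0 of 5 tested by limma, and 0 at an unadjusted p under 0.05). Of all tested genes, 9.72% were called higher and 15% lower. Mmp14 (MT1-MMP), which activates the MMP2 precursor at the cell surface and was the MMP with the highest mean level over the 8 libraries, had 56.7, 119.5, 122 and 112 FPKM at P14, against 169, 161, 134 and 125 FPKM at E17.5. Every P14 library lay below every E17.5 library, yet the log2 fold change of -0.57 ± 0.25 (limma adjusted p = 0.137) missed the threshold. Without P14 replicate 1 it was -0.31 ± 0.12 (limma adjusted p = 0.0521). Mmp17 (MT4-MMP, held by a lipid anchor) had 4.26, 17.1, 13.1 and 14 FPKM at P14, against 7.57, 7.197, 5.40 and 6.51 FPKM at E17.5. The lowest of the 8 libraries was P14 replicate 1, and the other P14 libraries were the highest. With all libraries the log2 fold change was 0.64 ± 0.36 (limma adjusted p = 0.223), and without P14 replicate 1 it was 1.04 ± 0.13 (limma adjusted p = 0.000351). Mmp24 (MT5-MMP), described mainly in neural tissue, had 0.331, 1.68, 1.201 and 1.31 FPKM at P14, against 1.52, 1.70, 1.93 and 0.711 FPKM at E17.5. The ages overlapped, and its log2 fold change was -0.23 ± 0.25 (limma adjusted p = 0.537). Mmp15, also membrane-anchored, averaged 21.3 ± 3.32 FPKM at P14 and 19.8 ± 2.12 FPKM at E17.5. Mmp16 averaged 4.85 ± 1.77 FPKM at P14 and 4.13 ± 0.783 FPKM at E17.5. Mmp15 was not called with or without P14 replicate 1, whereas Mmp16 was called higher without it, at 0.40 ± 0.12 (limma adjusted p = 0.0261).

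Mmp10, Mmp11, Mmp23 and Mmp28 completed the tested MMPs. Mmp10 (stromelysin-2), which cuts proteoglycans and other matrix proteins and activates other MMP precursors, had 4.28, 1.30, 4.89 and 1.145 FPKM at P14, against 5.08, 5.74, 5.11 and 6.95 FPKM at E17.5. P14 replicates 1 and 3 lay just under the E17.5 range and replicates 2 and 4 far under it. Its log2 fold change was -0.93 ± 0.35 (limma adjusted p = 0.0907) with all libraries and -1.12 ± 0.35 (limma adjusted p = 0.0338) without P14 replicate 1, and the TPM scale gave an adjusted p of 0.0491 in the limma fit. Mmp11 (stromelysin-3), known from stroma, averaged 13.99 ± 5.87 FPKM at P14 and 11.8 ± 1.66 FPKM at E17.5, was not called with all libraries, and was called without P14 replicate 1 at 0.45 ± 0.14 (limma adjusted p = 0.0277). Mmp23 averaged 8.17 ± 2.82 FPKM at P14 and 8.72 ± 1.69 FPKM at E17.5, Mmp28 (epilysin) averaged 2.03 ± 0.677 FPKM at P14 and 1.90 ± 0.410 FPKM at E17.5, and neither was called in either fit.

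Mmp13 and Mmp10 were the only tested members of a run of 10 MMP genes on chromosome 9. In the coordinates of the file (GRCm39), the run spans positions 7272514 to 7699586, or 427.1 kb, and all 10 protein-coding rows in it are MMPs (Mmp13, Mmp12, Mmp1b, Mmp3, Mmp1a, Mmp10, Mmp8, Mmp27, Mmp20 and Mmp7). Promoters of several secreted MMPs are known to hold a site for AP-1, the factor made of FOS and JUN proteins. The AP-1 letters TGAGTCA, read on the other strand as TGACTCA and counted as the same motif, were searched in the window from 250 bases before to 50 bases after each RefSeq gene start (GRCm38.p6). They were found for 7 of 18 matched MMP genes (38.9%), all 7 within the run, and for 3 of 18 ADAM genes, 0 of 4 TIMP, 0 of 10 ADAMTS and 0 of 4 ADAMTSL genes, beside 1607 of 27025 genes in all (5.95%). A match is a description of the letters and not of binding. The windows around the motif, in capitals, are shown for both tested genes of the run and for Mmp3 and Mmp7, whose levels are given further on. They lie on the plus strand at chr9:7272439-7272525, chr9:7502239-7502325, chr9:7445736-7445822 and chr9:7691987-7692073 in GRCm38.p6, and the motif begins at position -35, -63, -46 and -63, counting the start base as 0.
Mmp13: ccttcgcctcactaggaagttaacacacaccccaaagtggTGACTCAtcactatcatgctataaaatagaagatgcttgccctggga
Mmp10: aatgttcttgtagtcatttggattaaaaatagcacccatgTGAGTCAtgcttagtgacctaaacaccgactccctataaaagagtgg
Mmp3: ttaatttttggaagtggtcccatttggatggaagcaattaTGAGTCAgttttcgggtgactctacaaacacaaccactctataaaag
Mmp7: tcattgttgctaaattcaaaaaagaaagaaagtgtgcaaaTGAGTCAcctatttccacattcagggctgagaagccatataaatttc
The same motif stood near the start of Mmp13, which was called lower at P14, and of Mmp10. Mmp10 also lay below E17.5 in every P14 library. It was called lower without P14 replicate 1 and on the TPM scale, but not with all libraries. Adam19, called lower with all libraries, held the motif too. In all, 2 of 10 matched members called lower had it and 0 of 2 called higher, beside 4.40% of tested genes. Mmp3, which has the motif and was not tested, was above E17.5 in every P14 library (0.0914 to 0.277 FPKM, against 0 to 0.0579 FPKM). Mmp7 had reads at P14 only. A link between the motif and these levels was not tested. Of the FOS and JUN factors, 5 were tested, and 1 was called. Jund had 110.0, 153, 162 and 177 FPKM at P14, against 110.1, 90.04, 80.2 and 76.6 FPKM at E17.5. P14 replicate 1 overlapped the E17.5 range, the other P14 libraries lay above it, and the log2 fold change was 0.74 ± 0.18 (limma adjusted p = 0.0218). Fos, among the 4 not called, averaged 9.66 ± 4.48 FPKM at P14 and 15.4 ± 2.52 FPKM at E17.5. Jund was not called on the TPM scale, and Fosl2 was called lower without P14 replicate 1.

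**Figure D2:**
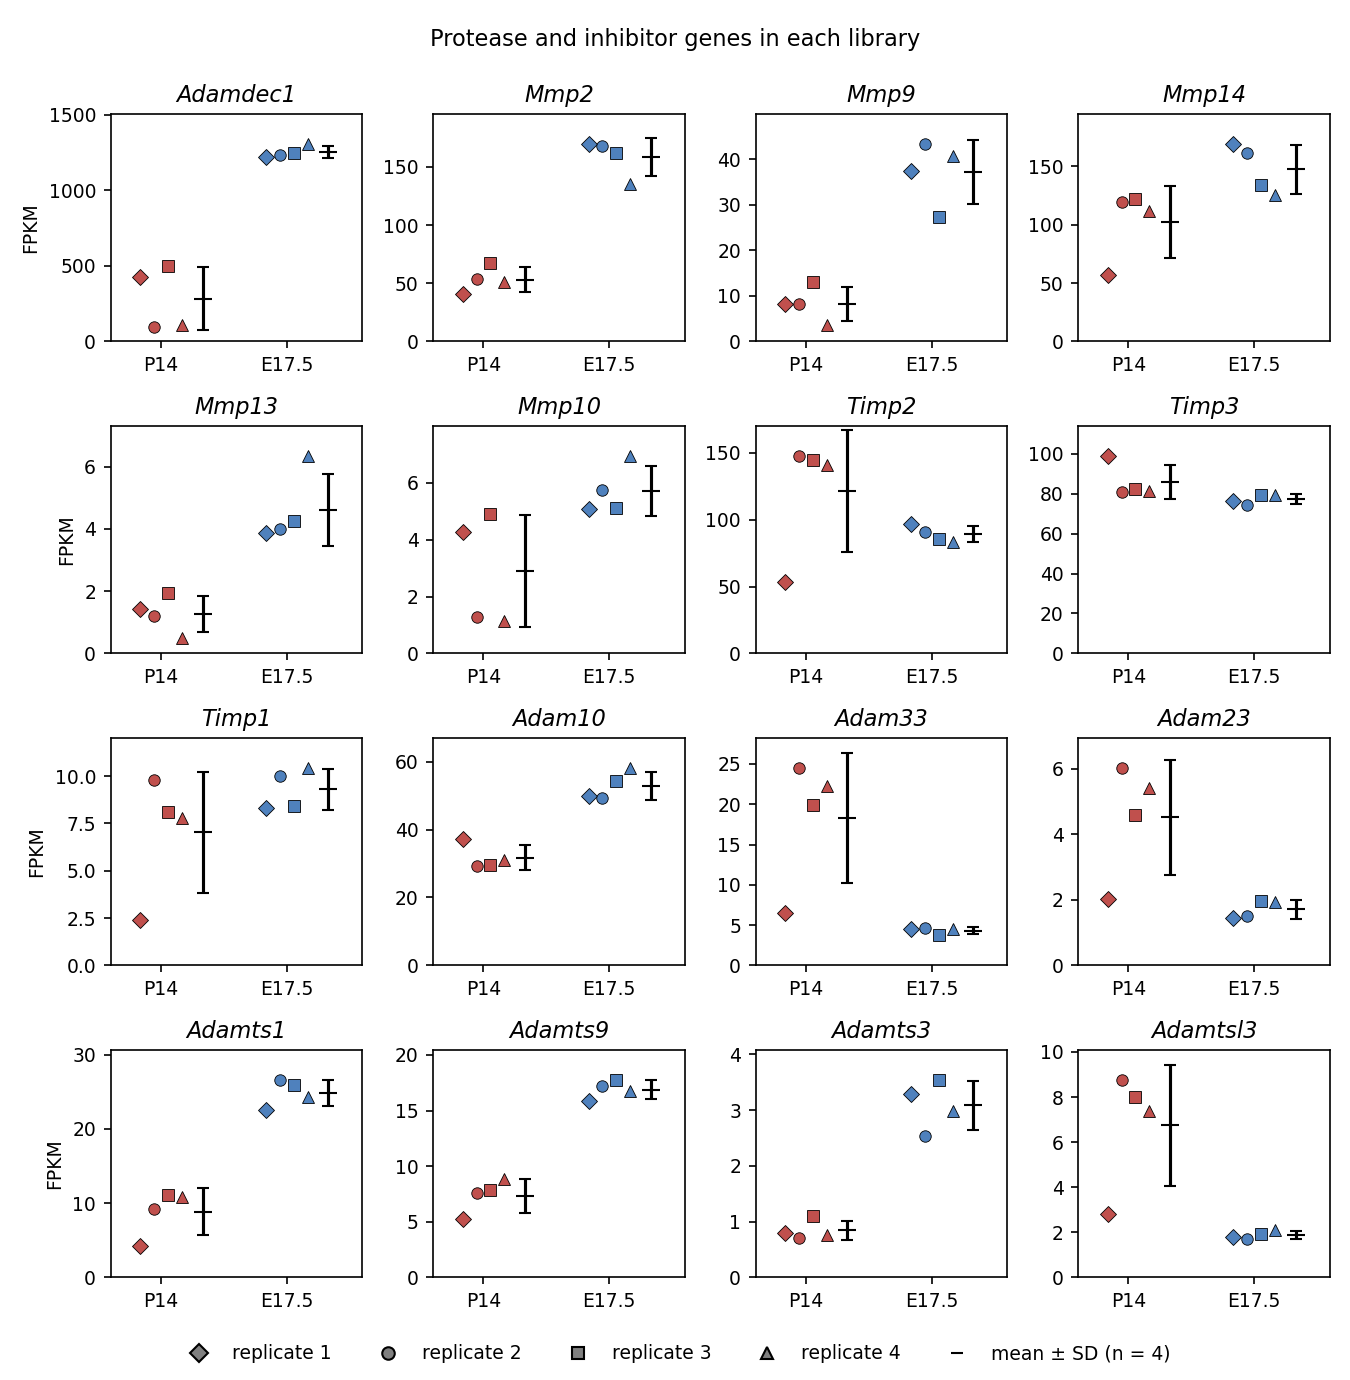
FPKM (vertical axis, linear, from 0) of 16 genes in each library, P14 in red and E17.5 in blue, with the marker shape giving the replicate and the bar at the right of each age the mean ± SD (n = 4). P14 lies below E17.5 in every library for Adamdec1, Mmp2, Mmp9 and Mmp13. P14 replicate 1 (diamond) is the lowest P14 library for Timp2, Timp1, Adam33, Adam23 and Adamtsl3.

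No TIMP was called with all 8 libraries (0 of 3 tested by limma, and 0 at an unadjusted p under 0.05). Of all tested genes, 9.72% were called higher and 15% lower. Timp2, which inhibits MMPs and also bridges MMP14 to the MMP2 precursor (chr11:118191887-118246237, GRCm39), had 53.4, 148, 144 and 141 FPKM at P14, against 96.5, 91.0, 85.8 and 83.0 FPKM at E17.5. P14 replicate 1 was the lowest of the 8 libraries and the other 3 P14 libraries were the highest, so the ages overlapped only through that library. The log2 fold change was 0.34 ± 0.32 (limma adjusted p = 0.464), and without P14 replicate 1 it was 0.69 ± 0.075 (limma adjusted p = 0.000197). Timp3, which binds the matrix and also inhibits ADAM17 and ADAMTS enzymes, had 99.0, 80.97, 82.2 and 81.3 FPKM at P14, against 76.3, 74.3, 79.6 and 79.6 FPKM at E17.5. All P14 libraries lay above all E17.5 libraries, narrowly, with a log2 fold change of 0.14 ± 0.10 (limma adjusted p = 0.327), which was -0.048 on the TPM scale. Timp1, a secreted inhibitor that binds the MMP9 precursor, had 2.40, 9.80, 8.09 and 7.81 FPKM at P14, against 8.31, 10.03, 8.41 and 10.4 FPKM at E17.5. Again the lowest library was P14 replicate 1, and the log2 fold change was -0.48 ± 0.34 (limma adjusted p = 0.332) with it and -0.11 ± 0.11 (limma adjusted p = 0.454) without it. The Timp1 row lies inside the span of Syn1, which averaged 10.4 FPKM at P14 and 5.73 FPKM at E17.5, so a part of its reads is uncertain. Timp4, the least expressed of the 4, had 0.0484, 0.298, 0.127 and 0.213 FPKM at P14, against 0.336, 0.215, 0.215 and 0.188 FPKM at E17.5, and was not tested.

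The summed level of the 23 MMPs was 158, 259, 279 and 239 FPKM in P14 replicates 1 to 4, against 448, 445, 384 and 364 FPKM in the E17.5 replicates. The summed level of the 4 TIMPs was 155, 239, 235 and 230.3 FPKM at P14, against 181, 176, 174 and 173 FPKM at E17.5. The ratio of the summed MMP RNA to the summed TIMP RNA was 1.02, 1.08, 1.19 and 1.04 at P14, against 2.47, 2.53, 2.21 and 2.10 at E17.5. The ratios did not overlap between the ages, and P14 replicate 1, in which both sums were the lowest of their kind, was no exception. The ratio compares RNA levels and is no measure of enzyme or inhibitor protein. Mmp2 and Mmp14 made up most of the MMP sum, and Timp2 and Timp3 most of the TIMP sum.

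**Figure D3:**
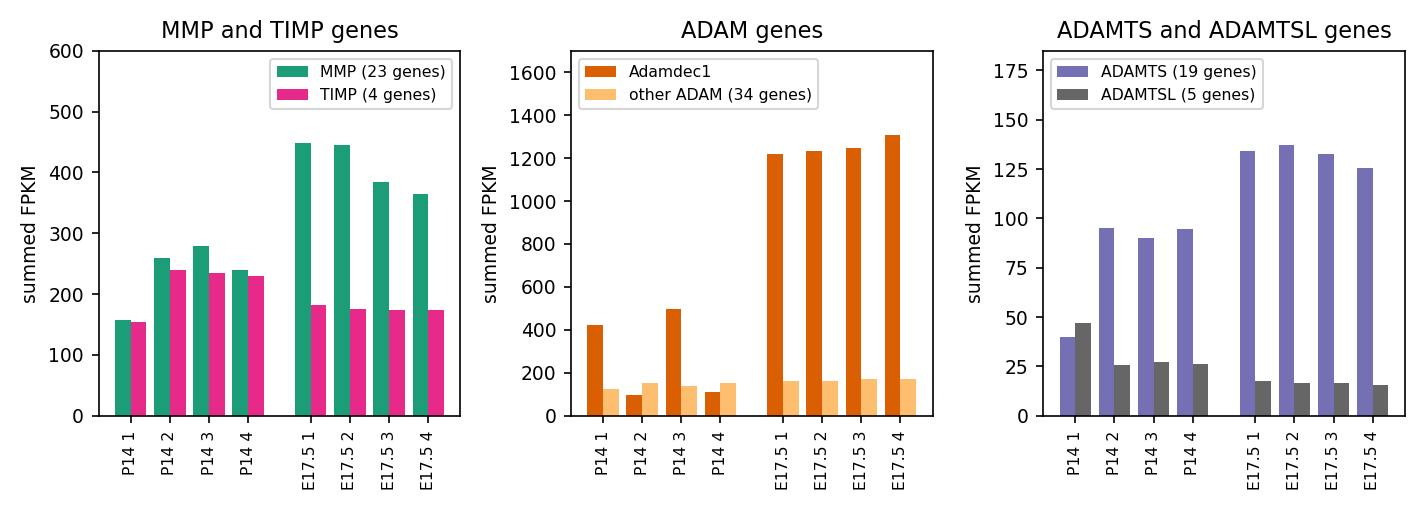
Summed FPKM (vertical axes, linear, from 0) of each family in the 4 P14 libraries (left) and the 4 E17.5 libraries (right), for MMP and TIMP genes, for Adamdec1 and the other ADAM genes, and for ADAMTS and ADAMTSL genes. The MMP bars are 158 to 279 at P14 and 364 to 448 at E17.5, while the TIMP bars are 155 to 239 at P14 and 173 to 181 at E17.5.

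Adamdec1 had the highest mean level of all 86 genes at both ages and was lower at P14. It encodes a secreted ADAM with an altered zinc site, known in the intestine from macrophages and stromal cells (chr14:68800836-68819521, GRCm39). It had 425, 95, 496 and 110.0 FPKM at P14, against 1218, 1233, 1249 and 1308 FPKM at E17.5. The 4 E17.5 libraries were close together, while P14 replicates 1 and 3 were over 3 times as high as replicates 2 and 4, and all P14 libraries lay below all E17.5 libraries. The log2 fold change was -2.52 ± 0.54 (limma adjusted p = 0.0144), and the mean was 4.45 times higher at E17.5. P14 replicates 1 and 3 also had the highest summed macrophage markers of the P14 libraries (448 and 359 FPKM, against 225 and 259 in replicates 2 and 4) and the highest summed pan-epithelial markers, and the part of either in the level of Adamdec1 was not tested. Adamdec1 made up 38.5% to 78.1% of the summed ADAM level at P14 and 88.1% to 88.5% at E17.5.

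The other ADAM proteases with an active catalytic site were mostly lower at P14. With Adamdec1, 5 of the 8 tested in that group were lower (62.5%, beside 15% of all tested genes). In the same group 1 was higher (12.5%, beside 9.72%). Adam8 and Adam28, also catalytic, were not tested: Adam8 had 0.537 to 0.851 FPKM at P14 and 0.796 to 0.907 FPKM at E17.5, and Adam28 stayed under 0.2 FPKM in every library. Adam10, the main sheddase of Notch receptors, had 37.3, 29.2, 29.5 and 31.1 FPKM at P14, against 49.9, 49.4, 54.3 and 58.2 FPKM at E17.5. The ages did not overlap, and P14 replicate 1 was the highest P14 library. Its log2 fold change was -0.72 ± 0.11 (limma adjusted p = 0.00447). Adam17, which sheds TNF and ligands of the EGF receptor, had 11.97, 9.52, 10.7 and 10.3 FPKM at P14, against 15.8, 14.8, 18.4 and 18 FPKM at E17.5. Here too the ages did not overlap, and the log2 fold change was -0.61 ± 0.11 (limma adjusted p = 0.00744). The Adam17 row shares genomic span with Iah1, which averaged 21.1 FPKM at P14 and 10.8 FPKM at E17.5, so a part of its reads is uncertain.

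Adam12 and Adam19, relatives known as meltrins and described in muscle and mesenchyme, were also lower at P14. Adam12 had 2.69, 2.47, 3.22 and 3.02 FPKM at P14, against 6.38, 7.99, 7.86 and 6.69 FPKM at E17.5. It was less than 4 FPKM in every P14 library and over 6 FPKM in every E17.5 library, with a log2 fold change of -1.10 ± 0.12 (limma adjusted p = 0.0011). Adam19 had 9.94, 21, 18.2 and 22.1 FPKM at P14, against 31.1, 30.9, 34.6 and 31.4 FPKM at E17.5. The ages did not overlap and P14 replicate 1 was the lowest library, with a log2 fold change of -0.87 ± 0.23 (limma adjusted p = 0.029). That call was lost when P14 replicate 3 or any E17.5 replicate was left out (adjusted p 0.0619 to 0.0844, limma). Adam9, a widely expressed sheddase, averaged 18.9 ± 6.28 FPKM at P14 and 18.8 ± 1.10 FPKM at E17.5. Adam15 averaged 28.0 ± 5.16 FPKM at P14 and 25.3 ± 1.71 FPKM at E17.5. Neither was called with all libraries, and Adam9, at 28.1 FPKM in P14 replicate 1 and 14.5 to 16.9 FPKM in the other P14 libraries, was called lower without that replicate, at -0.24 ± 0.080 (limma adjusted p = 0.033).

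Adam33, a catalytic ADAM known from smooth muscle and fibroblasts of the human airway, was the ADAM that increased most (chr2:130892739-130905734, GRCm39). It had 6.49, 24.5, 19.9 and 22.3 FPKM at P14, against 4.48, 4.61, 3.74 and 4.47 FPKM at E17.5. Its level in P14 replicate 1 was far below the other P14 libraries but above every E17.5 library. The log2 fold change was 1.72 ± 0.37 (limma adjusted p = 0.0139), and without P14 replicate 1 it was 2.12 ± 0.10 (limma adjusted p = 5.52e-06). By mean level it stood 10th of the 86 genes at P14 and 31st at E17.5. Summed smooth muscle markers were 2746 FPKM in P14 replicate 1 and 7565 to 10655 FPKM in the other P14 libraries, against 4768 to 5238 FPKM at E17.5; their part in the level of Adam33 was not tested.

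Adam11, Adam22 and Adam23 lack an active protease site and are known as neuronal surface proteins, the last 2 as receptors of LGI ligands. Adam23 had 2.03, 6.02, 4.60 and 5.40 FPKM at P14, against 1.43, 1.502, 1.95 and 1.94 FPKM at E17.5, with all P14 libraries above all E17.5 libraries and P14 replicate 1 close to them. Its log2 fold change was 0.96 ± 0.26 (limma adjusted p = 0.0307), but the call was lost when any library other than P14 replicate 1 was left out (adjusted p 0.0637 to 0.0801, limma) and on the TPM scale (adjusted p = 0.0931, limma). Adam11 had 1.63, 5.85, 5.33 and 5.59 FPKM at P14, against 2.09, 2.41, 1.99 and 1.64 FPKM at E17.5. P14 replicate 1 lay just under the E17.5 libraries and the other P14 libraries above them, and the log2 fold change was 0.79 ± 0.31 (limma adjusted p = 0.095) with that library and 1.12 ± 0.10 (limma adjusted p = 9.56e-05) without it. Adam22 averaged 2.55 ± 0.985 FPKM at P14 and 1.74 ± 0.222 FPKM at E17.5 and was likewise called only without P14 replicate 1, at 0.56 ± 0.10 (limma adjusted p = 0.00263). Summed enteric neuron markers were 183 FPKM in P14 replicate 1 and 485 to 640 FPKM in the other P14 libraries, against 335 to 389 FPKM at E17.5, and their part in these levels was not tested. Of the 4 LGI ligand genes, 2 were tested and neither was called with all libraries by limma (1, Lgi4, was higher at an unadjusted p under 0.05). Leaving out P14 replicate 1, Lgi4 was called higher, at 1.10 ± 0.12 (limma adjusted p = 0.000229).

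Another 22 genes of the ADAM family, known mainly from testis and sperm, included 1 that was tested, Adam1a, with 1.43, 2.18, 1.76 and 1.57 FPKM at P14, against 1.10, 1.17, 1.28 and 0.877 FPKM at E17.5. All P14 libraries lay above all E17.5 libraries, with a log2 fold change of 0.37 ± 0.12 (limma adjusted p = 0.0576), which missed the threshold, and of 0.43 ± 0.12 (limma adjusted p = 0.0179) without P14 replicate 1.

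With all 8 libraries the ADAMTS family moved mostly one way. Of 16 tested genes, 9 were lower at P14 by limma (56.2%, beside 15% of all tested genes). By limma 0 were higher, beside 9.72%, and 0 also at an unadjusted p under 0.05. In 10 of the 16, every P14 library lay below every E17.5 library (62.5%, beside 20.4%). Without P14 replicate 1, 10 were lower (62.5%, beside 26.9%) and 3 higher (18.8%, beside 22.6%). The lower genes included 3 of the 6 tested proteoglycanases, which cut versican and aggrecan. Adamts1 had 4.25, 9.22, 11.1 and 10.8 FPKM at P14, against 22.5, 26.6, 25.9 and 24.3 FPKM at E17.5. There was no overlap between the ages, and the lowest library was once more P14 replicate 1. The log2 fold change was -1.46 ± 0.26 (limma adjusted p = 0.0068). Adamts9, known for cutting versican in developing tissues, had 5.21, 7.56, 7.84 and 8.83 FPKM at P14, against 15.8, 17.2, 17.8 and 16.8 FPKM at E17.5, with a log2 fold change of -1.12 ± 0.15 (limma adjusted p = 0.00226). Adamts4 had 1.29, 2.63, 1.94 and 3.03 FPKM at P14, against 8.20, 7.68, 8.05 and 5.96 FPKM at E17.5, with a log2 fold change of -1.42 ± 0.19 (limma adjusted p = 0.0027). In both, every P14 library lay below every E17.5 library. The other 3 were not called: Adamts8, which also cuts aggrecan, had 4.56, 16.2, 12.4 and 14.9 FPKM at P14, against 11.95, 11.1, 9.39 and 9.18 FPKM at E17.5. P14 replicate 1 was the lowest library and the other P14 libraries the highest. The log2 fold change was 0.07 ± 0.34 (limma adjusted p = 0.889), changed sign on the TPM scale (-0.11) and without P14 replicate 2 (-0.10) or replicate 4 (-0.062), and was 0.44 ± 0.12 (limma adjusted p = 0.0148) without P14 replicate 1. Adamts5 averaged 3.26 ± 1.148 FPKM at P14 and 2.67 ± 0.467 FPKM at E17.5. Adamts15 averaged 4.26 ± 1.77 FPKM at P14 and 2.80 ± 0.234 FPKM at E17.5, and both were called higher without P14 replicate 1, at 0.39 ± 0.13 (limma adjusted p = 0.0312) and 0.69 ± 0.095 (limma adjusted p = 0.000649).

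Of the enzymes that remove the amino-terminal propeptide of fibrillar procollagens, Adamts3 was lower at P14. It had 0.799, 0.713, 1.10 and 0.762 FPKM at P14, against 3.30, 2.53, 3.54 and 2.99 FPKM at E17.5, and the ages did not overlap, with a log2 fold change of -1.148 ± 0.12 (limma adjusted p = 0.00108). Only 1 P14 library reached 1 FPKM, so the gene passed the filter through the E17.5 libraries. Adamts3 also processes the lymphatic growth factor VEGF-C. Adamts2, the main processor of collagen I, had 2.94, 11.8, 10.9 and 10.51 FPKM at P14, against 14.4, 14.2, 13.7 and 13.1 FPKM at E17.5. P14 replicate 1 was far below all others, and the log2 fold change was -0.70 ± 0.36 (limma adjusted p = 0.182) with it and -0.30 ± 0.073 (limma adjusted p = 0.00917) without it. Adamts14 averaged 1.78 ± 0.512 FPKM at P14 and 2.77 ± 0.601 FPKM at E17.5 and was not called in either fit.

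Another 5 ADAMTS genes with other or less defined substrates were lower at P14. Adamts18 had 0.877, 0.292, 0.987 and 0.261 FPKM at P14, against 2.78, 2.66, 2.52 and 2.70 FPKM at E17.5. No P14 library reached 1 FPKM, so the gene passed the filter through the E17.5 libraries alone and a difference was built into that. Its log2 fold change was -1.22 ± 0.17 (limma adjusted p = 0.00293). Adamts6, which acts on microfibrils and focal adhesions, had 0.879, 1.96, 1.81 and 1.72 FPKM at P14, against 4.02, 4.01, 5.32 and 6.49 FPKM at E17.5, with a log2 fold change of -1.201 ± 0.20 (limma adjusted p = 0.00514). Both genes had no overlap between the ages, and within P14 they differed: Adamts18 was higher in replicates 1 and 3, Adamts6 lowest in replicate 1.

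Adamts7 and Adamts12, which cut cartilage oligomeric matrix protein, and Adamts19 were lower by smaller margins. Adamts7 had 1.43, 4.19, 3.80 and 4.10 FPKM at P14, against 7.5, 7.71, 6.44 and 6.26 FPKM at E17.5, with a log2 fold change of -0.92 ± 0.25 (limma adjusted p = 0.0308). Adamts12 had 1.80, 4.09, 3.80 and 3.58 FPKM at P14, against 5.93, 6.75, 5.99 and 5.28 FPKM at E17.5, with a log2 fold change of -0.73 ± 0.20 (limma adjusted p = 0.0318). Adamts19 had 0.319, 1.28, 1.47 and 1.17 FPKM at P14, against 1.99, 2.15, 2.41 and 2.10 FPKM at E17.5, with a log2 fold change of -0.66 ± 0.20 (limma adjusted p = 0.0454). In all 3, P14 replicate 1 was the lowest library and the ages did not overlap. Their calls were each lost when P14 replicate 3 or any E17.5 replicate was left out, for Adamts12 also without P14 replicate 4, and for Adamts19 also without P14 replicate 2 or 4 (adjusted p 0.0513 to 0.118 over the 3 genes, limma). Adamts12 and Adamts19 also missed the threshold on the TPM scale (adjusted p = 0.0505 and 0.0653, limma). Adamts10, which binds fibrillin microfibrils and had the highest mean of the family over the 8 libraries (at E17.5 that of Adamts1 was higher), had 8.93, 19.7, 18.3 and 18.95 FPKM at P14, against 21.8, 21.5, 17.6 and 17.8 FPKM at E17.5. The ages overlapped, with a log2 fold change of -0.30 ± 0.24 (limma adjusted p = 0.394). Adamts17 averaged 3.11 ± 1.09 FPKM at P14 and 3.19 ± 0.288 FPKM at E17.5 and was not called in either fit.

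Of the 5 ADAMTSL genes, 1 was higher (20%, beside 9.72% of all tested genes) and 1 was lower at P14 (20%, beside 15%). Adamtsl3 (chr7:81984612-82263658, GRCm39) had 2.81, 8.76, 7.99 and 7.39 FPKM at P14, against 1.80, 1.68, 1.92 and 2.08 FPKM at E17.5. All P14 libraries lay above all E17.5 libraries, with P14 replicate 1 the closest to them. The log2 fold change was 1.34 ± 0.29 (limma adjusted p = 0.0139). Adamtsl2, which binds fibrillin and whose human gene is mutated in geleophysic dysplasia, had 0.314, 0.754, 0.470 and 1.08 FPKM at P14, against 1.68, 1.90, 2.16 and 1.98 FPKM at E17.5. Every P14 library was below every E17.5 library, and the log2 fold change was -0.84 ± 0.16 (limma adjusted p = 0.00794). As with Adamts3, 1 P14 library reached 1 FPKM. Adamtsl1 had 0.928, 3.403, 2.87 and 2.93 FPKM at P14, against 1.58, 1.46, 1.64 and 1.76 FPKM at E17.5, with a log2 fold change of 0.37 ± 0.25 (limma adjusted p = 0.308) and, without P14 replicate 1, of 0.64 ± 0.10 (limma adjusted p = 0.000949). Adamtsl4, a fibrillin partner of the eye's suspensory fibres, averaged 8.26 ± 3.16 FPKM at P14 and 5.74 ± 0.633 FPKM at E17.5 and was called higher without P14 replicate 1, at 0.69 ± 0.093 (limma adjusted p = 0.000598). Adamtsl5 had 39.3, 3.64, 6.06 and 4.42 FPKM at P14, against 5.87, 5.95, 5.39 and 4.55 FPKM at E17.5. P14 replicate 1 alone was high, and the log2 fold change was 0.52 ± 0.63 (limma adjusted p = 0.573) with it and -0.19 ± 0.15 (limma adjusted p = 0.318) without it.

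P14 replicate 1 lay below the median of the other P14 libraries in 36 of the 48 tested genes (75.0%), against 48.3% of all tested genes. It lay below all the other P14 libraries in 35 of the 48 (72.9%), against 40.9% of all tested genes. The median ratio of P14 replicate 1 to the median of the other P14 libraries was 0.47 over the 48 and 1.02 over all tested genes. The lowest ratios were those of Adamts19 (0.249), Mmp24 (0.253), Adamts2 (0.271), Adam11 and Adam33 (both 0.291). The highest were those of Adamtsl5 (8.87), Adamdec1 (3.86), Mmp10 (3.30) and Adamts18 (3.01). Fibroblast and smooth muscle markers were also lowest, and pan-epithelial markers highest, in that library. A second pattern, chosen after the values were seen, was that P14 replicates 1 and 3 were both at least 2 times as high as replicates 2 and 4. It held for Adamdec1, Adamts18 and Mmp10, or 3 of 48 genes (6.25%), against 1.73% of all tested genes.

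**Figure D4:**
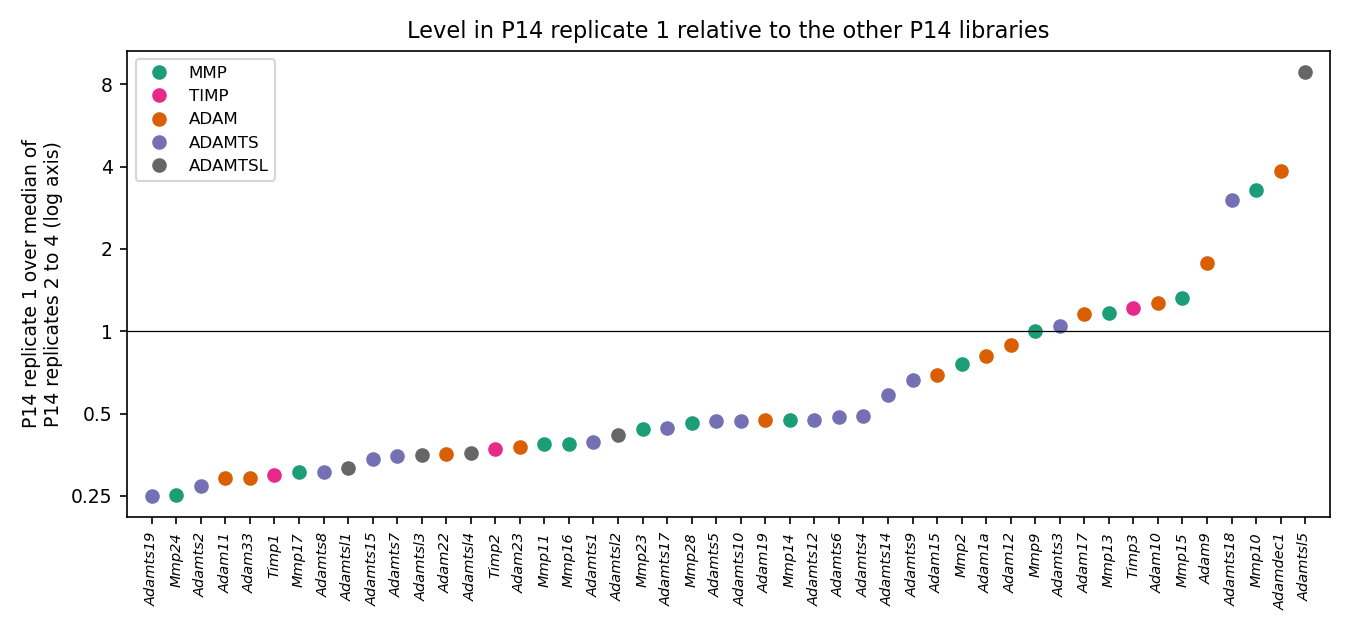
Ratio of P14 replicate 1 to the median of P14 replicates 2 to 4 (vertical axis, log scale) for each of the 48 tested genes (horizontal axis, in rising order), coloured by family. Most points lie under 1 (36 of 48), and Adamtsl5 at 8.87, Adamdec1 at 3.86, Mmp10 at 3.30 and Adamts18 at 3.01 lie highest.

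The 38 genes that were not tested were low. Reads were absent in all 8 libraries for 9 of them (Adam2, Adam6b, Adam25, Adam26a, Adam34, Adam34l, Adam39, Mmp1a and Mmp1b), and 33 stayed under 1 FPKM in every library. Those above 1 FPKM somewhere were Mmp7, Mmp19, Mmp25, Adamts13 and Adamts20. Mmp7 (matrilysin), made by Paneth cells of the epithelium, had 0.959 and 1.29 FPKM in P14 replicates 1 and 3 (15 and 27 reads) and no read in P14 replicates 2 and 4 or at E17.5, where 3 reads would have been 0.135 to 0.155 FPKM. The libraries with Mmp7 reads were those with the highest pan-epithelial markers, and their part in it was not tested. Mmp25 (MT6-MMP), known from neutrophils, had 0.0769, 0.272, 0.207 and 0.350 FPKM at P14, against 0.922, 1.01, 0.956 and 0.856 FPKM at E17.5. Adamts13, which cuts von Willebrand factor, had 0.215, 0.228, 0.141 and 0.246 FPKM at P14, against 1.11, 0.728, 0.686 and 0.710 FPKM at E17.5. In both genes every P14 library lay below every E17.5 library, and in the fit without the filter on low values both were lower (limma adjusted p = 0.00936 and 0.0155). Mmp3 (stromelysin-1) had 0.0914 to 0.277 FPKM at P14 and 0 to 0.0579 FPKM at E17.5. Mmp8, the neutrophil collagenase, stayed under 0.4 FPKM in every library. Mmp12, the macrophage elastase, was at 0.151 to 0.283 FPKM at P14 and 0.120 to 0.214 FPKM at E17.5.

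Genes that work with these proteases were read in 11 lists. The list counts are small and stand beside 9.72% of all tested genes called higher and 15% lower. Without P14 replicate 1 these shares were 22.6% and 26.9%. Of the plasminogen system, which activates MMP precursors, 0 of 6 tested genes were higher at P14 by limma (0 also at an unadjusted p under 0.05). Plau (urokinase) was lower, with 10.6, 8.67, 15.7 and 9.58 FPKM at P14, against 30.2, 23.3, 24.5 and 31.1 FPKM at E17.5 and a log2 fold change of -1.24 ± 0.19 (limma adjusted p = 0.00408). Plat and Serping1 were called higher without P14 replicate 1. Among 6 tested proprotein convertases, which cut the propeptides of MMPs with a furin site, ADAMs and ADAMTS enzymes, 2 were higher (Pcsk1 and Pcsk2) and 1 was lower (Pcsk6). Pcsk2 had 1.46, 5.89, 4.46 and 4.43 FPKM at P14, against 0.988, 0.971, 0.956 and 0.952 FPKM at E17.5. No E17.5 library reached 1 FPKM of Pcsk2, so it passed the filter through the P14 libraries alone and a difference was built into that. For Pcsk1, only replicate 3 of the E17.5 libraries reached 1 FPKM. Pcsk6 had 15.5, 10.8, 21.9 and 12.7 FPKM at P14, against 37.0, 33.5, 32.7 and 32.3 FPKM at E17.5. The log2 fold changes of Pcsk2 and Pcsk6 were 1.27 ± 0.29 (limma adjusted p = 0.0186) and -1.147 ± 0.20 (limma adjusted p = 0.00597). Pcsk7 joined the higher convertases without P14 replicate 1. Of 4 tested other metalloproteinase inhibitors, 1 was lower: Spock3, at 7.04 ± 1.03 FPKM at P14 and 14.95 ± 2.49 FPKM at E17.5 with a log2 fold change of -0.98 ± 0.15 (limma adjusted p = 0.00396). Reck, a membrane-anchored inhibitor of MMPs, averaged 17.2 ± 6.92 FPKM at P14 and 20.2 ± 1.29 FPKM at E17.5, and P14 replicate 1, at 6.94 FPKM, was the only library under 19 FPKM. In the fit without that library, Spock2 was higher and Tfpi2 joined Spock3 among the lower ones. Of 4 tested genes for astacin proteases and their enhancers, 1 was higher, Mep1a, an epithelial brush border protease. It had 698, 2.76, 30.1 and 7.77 FPKM at P14 and 0 to 0.0822 FPKM at E17.5, with a log2 fold change of 4.80 ± 1.43 (limma adjusted p = 0.043). No E17.5 library reached 1 FPKM of Mep1a, so it too passed the filter through the P14 libraries alone. The order of Mep1a among the P14 libraries was that of the summed pan-epithelial markers, whose part in it was not tested.

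Among what ADAM10 and ADAM17 shed, 0 of 15 receptors and adhesion proteins were higher by limma, beside 9.72% of all tested genes. At an unadjusted p under 0.05, 1 was higher, the epithelial cadherin Cdh1. No E17.5 library reached 1 FPKM of Cdh1, so it passed the filter through the P14 libraries alone. Notch3, Notch1, Axl and Il6ra, 4 of the 15, were lower, beside 15% of all tested genes. The counts without P14 replicate 1 were 1 higher (L1cam, at 0.44 ± 0.11 (limma adjusted p = 0.0108)) and 8 lower, with Cd44, Notch4, Cdh2 and Mertk added. In that fit 22.6% of all tested genes were higher and 26.9% lower. Notch3, a receptor of vascular mural cells, had 2.77, 8.75, 6.34 and 8.53 FPKM at P14, against 20.02, 20.6, 16.4 and 15.4 FPKM at E17.5, with a log2 fold change of -1.41 ± 0.30 (limma adjusted p = 0.0132). Notch1 averaged 6.14 ± 1.02 FPKM at P14 and 13.2 ± 0.973 FPKM at E17.5, with a log2 fold change of -1.001 ± 0.13 (limma adjusted p = 0.00214). Of 7 tested shed ligands, 2 were lower (Nrg1 and Cxcl16) and Btc was higher. Nrg1, a ligand of ERBB receptors, had 0.541, 0.314, 0.688 and 0.498 FPKM at P14, against 2.35, 2.63, 2.85 and 2.93 FPKM at E17.5, and a log2 fold change of -1.29 ± 0.11 (limma adjusted p = 0.000667). No P14 library reached 1 FPKM of Nrg1, so it passed the filter through the E17.5 libraries alone and a difference was built into that. Ereg was also lower without P14 replicate 1, the only P14 library in which it reached 1 FPKM. Of 8 tested partners that carry ADAM10 or ADAM17 to the surface, 1 was called with all libraries, Tspan17, higher at P14, at 11.97 ± 3.27 FPKM at P14 and 6.39 ± 0.554 FPKM at E17.5 with a log2 fold change of 0.78 ± 0.19 (limma adjusted p = 0.0218). It was not called on the TPM scale. In the fit without P14 replicate 1, Tspan15 was also higher, at 0.64 ± 0.11 (limma adjusted p = 0.00187), and Tspan14 and Frmd8 were lower, at -0.59 ± 0.065 (limma adjusted p = 0.000219) and -0.35 ± 0.10 (limma adjusted p = 0.0161).

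Of the substrates of ADAMTS enzymes, 2 of 3 tested were lower. Versican (Vcan), the large proteoglycan cut by ADAMTS1, ADAMTS4 and ADAMTS9, had 1.76, 2.99, 2.45 and 3.39 FPKM at P14, against 5.99, 7.63, 7.60 and 7.66 FPKM at E17.5. Its ages did not overlap, and the log2 fold change was -1.19 ± 0.17 (limma adjusted p = 0.00272). Thbs1 was the other, at 29.6 ± 6.41 FPKM at P14 and 51.1 ± 6.44 FPKM at E17.5 with a log2 fold change of -0.78 ± 0.16 (limma adjusted p = 0.0124). Vwf was called higher without P14 replicate 1. Of 9 tested microfibril partners of ADAMTSL proteins, 3 were lower and 2 higher. Fbn2, the fibrillin of fetal microfibrils, had 6.24, 19.3, 17.1 and 20.3 FPKM at P14, against 49.7, 54.0, 57.4 and 55.4 FPKM at E17.5 and a log2 fold change of -1.84 ± 0.33 (limma adjusted p = 0.00709). Mfap2 and Mfap4 were lower too, with log2 fold changes of -1.34 ± 0.32 (limma adjusted p = 0.0204) and -1.14 ± 0.30 (limma adjusted p = 0.028). Mfap5 and Ltbp2 were higher, with log2 fold changes of 1.56 ± 0.40 (limma adjusted p = 0.0259) and 0.996 ± 0.20 (limma adjusted p = 0.0109), and neither was called on the TPM scale. Ltbp3 was higher without P14 replicate 1. Fbn2 was also lowest in P14 replicate 1, at 6.24 FPKM. Over the 11 lists, 69 genes were tested. With all libraries 8 were higher at P14 (11.6%, beside 9.72% of all tested genes) and 15 lower (21.7%, beside 15%). Those counts include Pcsk2 and Mep1a (higher) and Nrg1 (lower), which passed the filter through 1 age alone. Without P14 replicate 1, 17 were higher (24.6%, beside 22.6%) and 24 lower (34.8%, beside 26.9%). When one of the other libraries was left out, 2 to 7 were higher, beside 617 to 1175 of all tested genes. Rescaling to TPM left 4 higher.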

How the data were processed

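The values were FPKM per gene as deposited, 1 column for each of the 8 libraries, and every value column was used (0 unused). Per the submitters' processing notes, the tools were CASAVA, fastp, HISAT2, featureCounts and DESeq2 1.20.0, with the genome build GRCm39; their roles, parameters and strand setting are not given in the sources used here. FPKM times gene length came to whole multiples of 1 step in each library (all values, tolerance 1e-06), which gave the read numbers quoted. The library size behind the authors' FPKM, as a share of assigned reads, was 0.780 for P14 replicate 1 and 1.02 to 1.06 for the rest. Rows without a gene name (302 of 46635) held 0.183% to 0.246% of reads, and 101 were tested.

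Genes of at least 1 FPKM in at least 4 libraries were tested on log2(FPKM + 1) with limma 3.58.1 (R 4.3.3, statmod 1.5.0; trend and robust moderation), P14 minus E17.5, with Benjamini-Hochberg adjustment over all 14044 genes. A fold change on this scale understates changes of low genes. The members and all gene lists were chosen with earlier results of these data known. Values in every library are given at least for the TIMPs, called members, those called without P14 replicate 1 at an absolute log2 change of at least 1, the highest member of each family, and those whose P14 replicate 1 value was over 3 times the other P14 median or less than that median divided by 3. Alternatives were another pseudocount, other filters and scalings, limma without trend or robust moderation, the replicate block and leaving out each library. The same replicate number did not mark related libraries (correlations of deviations -0.0641 to 0.00947). Of the 48 tested members, 27 share span with another row, 10 of them with a row of at least 1 FPKM, and these levels are uncertain because strand handling is not given. Promoter sequences are from RefSeq (GRCm38.p6) and were matched by gene for 54 members. Protein sequences were not used here. A few genes of the related lists are not reported here.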

Additional observations from a re-analysis of the deposited data

Results flagged for a closer look

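In 11 of 70 groups of 4 libraries, 1 library stood far from its nearest neighbour relative to the group's whole range, measured by the gap as a share of that range. Chance gives about 1 such group in 20, but the genes were picked in part by their P14 replicate 1 value, so a larger number for that library is built into the choice. P14 replicate 1 was that library in 8 of the 11. It was far below the other P14 libraries for Adam11 (gap 0.878 of the range), Adamts10 (0.871), Adamts2 (0.854), Adamts7 (0.857), Mmp14 (0.845) and Timp2 (0.928). It was far above them for Adamtsl5 (0.932) and Timp3 (0.931). At E17.5, replicate 3 was the high library for Adam19 (0.850) and the low one for Adam33 (0.834), and replicate 4 was the high one for Mmp13 (0.853). Without P14 replicate 1, Adam11, Adamts2 and Timp2 passed the threshold, and Adamtsl5 changed sign.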

How the results depend on the processing

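The count of members lower at P14 (18) was 14 to 21 when each library in turn was left out. The count higher (3) was 2 to 15, the 15 coming without P14 replicate 1. Calls over all tested genes moved in the same fits. Lower calls were 1118 to 3782, against 2108 with all libraries, and higher calls 617 to 3176, against 1365. Both largest counts came without P14 replicate 1. Related genes higher (8) were 2 to 17 in number, and lower (15) 9 to 24. Related genes higher were 4 after rescaling to TPM and 3 with the replicate number as a block (replicate block), which left 2 members higher and 14 lower and kept 16 of the 21 calls; over all tested genes it gave 695 higher and 1049 lower. Without the low-value filter 16 of the 21 calls were kept (Adam19, Adam23, Adamts7, Adamts12 and Adamts19 were lost, adjusted p 0.0621 to 0.0933). With 0.1 FPKM as pseudocount 20 were kept, and with quantile normalization or an untrended, non-robust limma all 21. Median-of-ratios scaling kept all 21 too, but it shifted fold changes by a median of only -1.5e-06. It gave the same 1365 higher and 2108 lower calls over all tested genes. The deposited values were thus already on that scale, and it was no separate check. Among members given in every library, log2 fold changes that reversed were those of Adamts8 (-0.10 without P14 replicate 2, -0.062 without P14 replicate 4, with a range up to 0.44 over the libraries left out, and -0.11 on the TPM scale), Adamtsl5 (-0.19 without P14 replicate 1, up to 0.85 without another library) and Timp3 (-0.048 on the TPM scale, -0.066 after quantile normalization). Of the other members, the sign also changed without P14 replicate 1 for Mmp15, Mmp23 and Adamts17, and on the TPM scale for Mmp11, Mmp15, Mmp16, Mmp28 and Adam15. None of these was called with all libraries, and the cause was not tested. Leave-one-out fits keep 3 libraries at one age, and depth limits the genes under 1 FPKM.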
